A study of Mus musculus with 14 samples.

Results

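Iron handling genes were examined in the livers of mice fed krill powder or a control diet. The genes were chosen by name: Hamp, Tfrc, Tfr2, Trf, Fth1, Ftl1, Slc40a1, Cp, Hfe and Hpx, 10 in all. The data cover them through each Affymetrix probe set, a group of short probes against 1 transcript, that the platform annotation lists with exactly 1 gene symbol when that symbol is among the 10. This gave 25 probe sets of 34958 with 1 listed symbol, for 8 of the 18194 genes those probe sets cover. Trf, the plasma iron carrier transferrin, and Ftl1, the ferritin light chain, are listed only on probe sets that carry several symbols, so no value is given for them. Of the 25 probe sets 20 were in the upper 50% by mean signal over the 14 arrays and were tested. The other 5 are given by their values.

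All mice were CBA/J males, of an inbred laboratory strain, housed singly on a fixed weekly energy ration of a purified maintenance diet. In the krill group 7 mice ate that diet with a krill powder extract from 2 months of age, and in the control group 7 mice ate the diet without it. Total protein and total lipid were equal in both diets, while their amino acids and fatty acids differed. After 3 months of feeding, at an age of 5 months, the liver was collected, and each array held the RNA of 1 mouse, so the spread between arrays includes that between mice. The sources used here do not give the iron content of the diets.

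Iron enters the plasma through ferroportin, the iron exporter encoded by Slc40a1, and travels bound to transferrin. The liver hormone hepcidin, made from Hamp, binds ferroportin and has it degraded, which holds iron inside cells. Hepatocytes sense transferrin-bound iron through transferrin receptor 2 (Tfr2) and the haemochromatosis protein (Hfe), and bone morphogenetic protein (BMP) signals through SMAD proteins raise hepcidin transcription. Transferrin receptor 1 (Tfrc) takes iron up, ferritin (Fth1, Ftl1) stores it, ceruloplasmin (Cp) oxidises it on export, and hemopexin (Hpx) binds free haem in the plasma.

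Over all 14 arrays, transcripts of the iron sensor Tfr2, of hepcidin and of ceruloplasmin were lower in krill livers, and that of hemopexin was higher. Without 4 krill arrays described below, the hemopexin change did not pass the threshold, while Tfr2, hepcidin and 3 ceruloplasmin probe sets did. Of these genes only Tfr2 passed with the spike-in level of each array, also described below, as a covariate. On the log2(signal + 16) scale used for all changes here, krill minus control, Tfr2 changed by -2.49 and -2.13 on its 2 probe sets and Hamp by -0.94 and -0.95. In all, 14 of the 20 tested probe sets passed the threshold (limma, Benjamini-Hochberg adjusted p under 0.05 over 19226 probe sets), 13 of them lower and 1 higher. That is 70.0% of the 20, against 46.6% of all probe sets tested, 26.7% lower and 19.9% higher. Cp alone accounts for 7 of the 20, and probe sets of 1 gene are not independent. The median change was -0.95 over the 20 and -0.05 over all probe sets tested.

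The arrays themselves differed with diet. The 3'/5' index, the mean log2 ratio of 3' over 5' signal of the actin and pyruvate carboxylase controls, which rises as RNA is shortened, ran from 2.44 to 3.12 in krill arrays and from 1.56 to 2.28 in control arrays. The groups did not overlap (two-sided exact permutation test over 3432 assignments, p = 0.000583, the smallest possible, or 0.00291 after adjustment over 5 measures), so the index and the diet cannot be told apart. Hybridisation spike-ins, added in equal amounts, stood at 14.12 to 14.34 on the log2 scale on krill replicates 2, 4, 5 and 7, at 12.92 to 13.17 on krill replicates 1, 3 and 6, and at 12.59 to 13.22 on control arrays. Without those 4 arrays 8 of the 20 probe sets were called, all lower, against 31.3% of all probe sets tested and 20.8% in that direction, and the median change was -0.23 over the 20 and -0.09 over all. With the index as a covariate limma called 0 of 19226 probe sets, of which 2902 had an unadjusted p under 0.05. Of 8 tested hepatocyte markers 4 were called higher and 1 lower, against 23.4% and 24.9% of 11344 genes read from their brightest probe set. Without the 4 krill arrays limma called 0 of the 8, and 1 had an unadjusted p under 0.05. The summed signal of the 8 markers was 411990.1 to 712115 in krill livers and 328807 to 491901 in control livers. Since whole liver was measured, fewer cells of a type and less RNA per cell cannot be told apart.

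**Figure D1:**
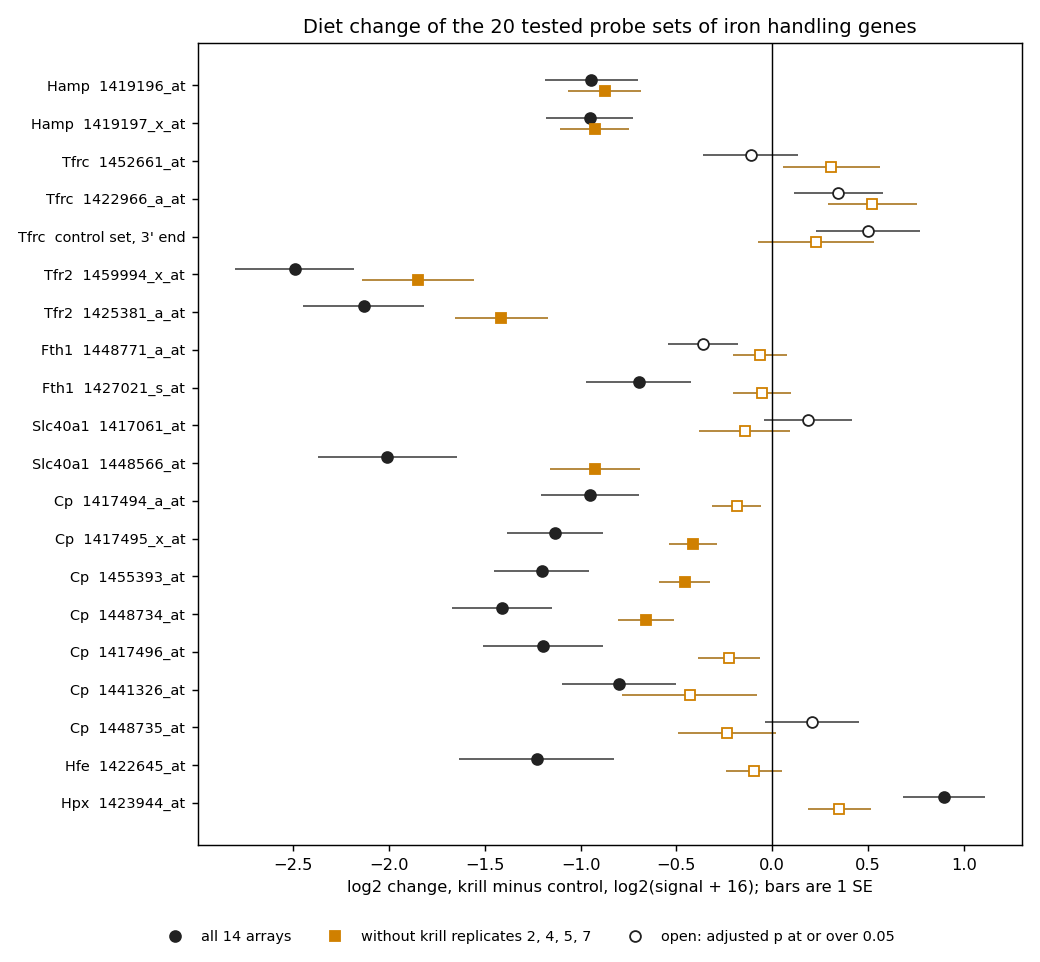
Log2 change of each tested probe set, krill minus control, with bars of 1 standard error. Circles are the fit to all 14 arrays and squares the fit without krill replicates 2, 4, 5 and 7; filled symbols passed the threshold. Both Tfr2 probe sets and both Hamp probe sets are filled in both fits, while Hpx, Hfe and 1 Fth1 probe set are filled for all arrays and open without the 4. Of Cp, 6 probe sets are filled for all arrays and 3 without the 4.

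The promoter of Hamp is shown because the BMP and interleukin 6 signals described further on act on it. The 250 bases before the transcription start are given from RefSeq, build GRCm38.p6, chr7:30944030-30944279, minus strand. Capitals mark GGCGCC, the core of the BMP response element, which begins 109 bases before the start, and the match to TTCNNNGAA, the pattern bound by STAT factors, which begins 97 bases before it.
Hamp: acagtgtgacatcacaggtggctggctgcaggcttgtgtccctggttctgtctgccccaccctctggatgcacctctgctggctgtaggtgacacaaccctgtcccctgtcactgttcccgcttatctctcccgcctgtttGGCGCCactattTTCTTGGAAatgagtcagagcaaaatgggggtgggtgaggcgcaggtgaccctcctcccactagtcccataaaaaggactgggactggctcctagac
Both patterns read the same on both strands. Of the 32851 windows of this length that RefSeq gives here, 9.59% hold GGCGCC and 7.02% hold TTCNNNGAA. Of the 12 windows of the 7 matched members, 2 hold GGCGCC, those of Hamp and Tfrc, and 1 holds TTCNNNGAA, that of Hamp. A match is a description of the letters only.

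Hamp encodes hepcidin, the hormone that closes ferroportin. Its probe set 1419196_at had a lowest, median and highest signal of 7255, 16939 and 28584 in krill livers, against 20862.5, 32487 and 40753 in control livers. Of the 7 krill livers 6 lay below every control liver, and krill replicate 5 was the exception. The log2 change was -0.94 (SE 0.24, limma adjusted p = 0.00429), which is 1.92-fold lower. The second probe set, 1419197_x_at, gave 7253, 14699.8 and 26266 in krill livers, against 20464, 30531 and 38129 in control livers, a change of -0.95 (SE 0.23, limma adjusted p = 0.00266). The pattern was the same, with krill replicate 5 alone inside the control range. Without krill replicates 2, 4, 5 and 7 the changes were -0.87 and -0.93, and both were called (limma adjusted p = 0.00366 and 0.00207). With the spike-in level as a covariate they were -0.77 and -0.82 and no longer passed (limma adjusted p = 0.0975 and 0.0633). With the 3'/5' index as a covariate the Hamp changes were -0.29 and -0.47 and were not called (limma adjusted p = 0.835 and 0.694). Mice carry a second hepcidin gene, Hamp2, whose sequence is close to that of Hamp, so probes may bind both transcripts. Its change on the brightest probe set was -0.55 (SE 0.21, limma adjusted p = 0.0418), and -0.62, not called, without krill replicates 2, 4, 5 and 7 (limma adjusted p = 0.109). Hamp2 averaged 10079.7 ± 2948 (SD, n = 7) in krill livers and 14821 ± 4318 (SD, n = 7) in control livers.

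**Figure D2:**
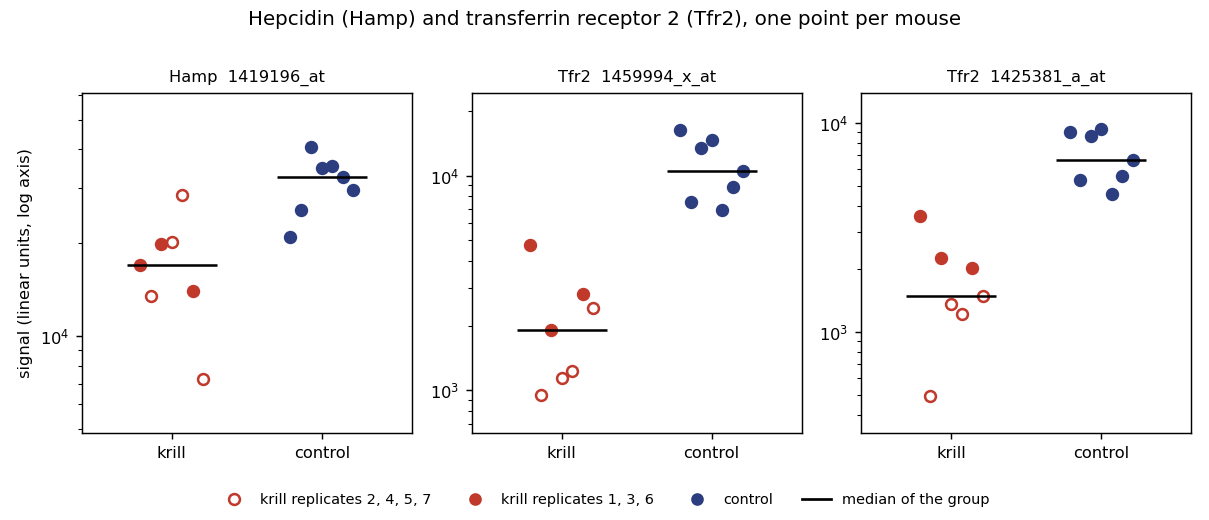
Signal in each liver on a log axis, krill left and control right, for Hamp and for both Tfr2 probe sets. Open circles are krill replicates 2, 4, 5 and 7 and bars are medians. For Tfr2 no krill liver reaches the control range, and for Hamp 1 of 7 does.

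Tfr2 is the hepatocyte's sensor of iron-loaded transferrin, and in mice its loss lowers hepcidin. On probe set 1459994_x_at the lowest, median and highest signals were 947, 1899 and 4754 in krill livers, against 6918, 10524 and 16226 in control livers. All 7 krill livers lay below all 7 control livers. The change was -2.49 (SE 0.31, limma adjusted p = 2.64e-05), 5.62-fold lower. Probe set 1425381_a_at gave 492, 1479.9 and 3585 in krill livers, against 4564, 6638 and 9275 in control livers. Here too the groups did not overlap, and the change was -2.13 (SE 0.32, limma adjusted p = 6.6e-05), 4.38-fold lower. Of the 20 tested probe sets 5 had groups that did not overlap, all with krill lower, against 13.7% of all probe sets tested and 8.45% in that direction. All of the 5 belong to Tfr2 or Cp, and probe sets of 1 gene are not independent.

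Both Tfr2 probe sets were also called in the next 2 fits. Without krill replicates 2, 4, 5 and 7 its changes were -1.85 and -1.41 (limma adjusted p = 0.000846 and 0.00114). With the spike-in level as a covariate they were -1.74 and -1.30 (limma adjusted p = 0.00343 and 0.0111), when 16.1% of all probe sets tested were called, 10.8% lower. In krill replicates 1, 3 and 6 the first probe set averaged 3159, and in krill replicates 2, 4, 5 and 7 it averaged 1437. With the 3'/5' index as a covariate the changes, -2.25 and -1.27, were not called (limma adjusted p = 0.16 and 0.368).

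Hfe, which partners transferrin receptors and takes part in iron sensing, was lower on its tested probe set 1422645_at. Signals were 161, 823 and 1728 as lowest, median and highest in krill livers, against 1349.95, 1748 and 1985 in control livers. The change was -1.23 (SE 0.40, limma adjusted p = 0.0192), 2.34-fold lower. Krill replicates 2, 4, 5 and 7 stood at 161 to 823, below every control liver, while krill replicates 1, 3 and 6 stood at 1384 to 1728, within the control range. Without those 4 arrays the change was -0.10 and the call ended (limma adjusted p = 0.653). The other probe set, 1450702_at, was below the signal filter, with 81.3 to 247.7 in krill livers and 66.1 to 114.4 in control livers.

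Tfrc, the transferrin receptor of iron uptake, had 6 probe sets and no call on the 3 tested. Probe set 1452661_at gave 442, 770.05 and 1490.1 as lowest, median and highest in krill livers, against 542, 784 and 1108 in control livers. The groups overlapped, and the change was -0.11 (SE 0.25, limma adjusted p = 0.723). Probe set 1422966_a_at changed by 0.35 (SE 0.23, limma adjusted p = 0.225), with 121 to 361 in krill livers and 137 to 218 in control livers. Tfrc is also one of the array maker's control transcripts, with probe sets for its 3' end, middle and 5' end. The 3' set changed by 0.50 (SE 0.27, limma adjusted p = 0.138), with 109 to 246 in krill livers and 59.7 to 149 in control livers. Its control mean of 113.7 was under the signal filter cut of 123.5, and its krill mean was 167.4. The 3' set entered the test, and the 20 tested probe sets, only through its krill signal, so its change is a description only. The log2 ratio of 3' over 5' signal averaged 1.38 ± 0.98 (SD, n = 7) in krill arrays and 1.59 ± 0.92 (SD, n = 7) in control arrays, a difference of -0.21 (two-sided exact permutation p = 0.679, adjusted p = 0.679 over 5 measures). The ratio of 3' over middle signal went the other way, with 3.22 ± 1.08 (SD, n = 7) in krill arrays and 1.87 ± 1.23 (SD, n = 7) in control arrays. That difference of 1.35 did not pass (two-sided exact permutation p = 0.0664, adjusted p = 0.083 over 5 measures). The 5' and middle sets lay under the array's median signal on 14 and 13 of the 14 arrays, so both ratios rest on dim signals. The last set, 1422967_a_at, was below the filter, with 31.1 to 235 in krill livers and 30.2 to 73.8 in control livers.

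Fth1, the ferritin heavy chain of iron storage, had a call on 1 of 2 probe sets. On 1427021_s_at the lowest, median and highest signals were 9519, 27079.7 and 41835 in krill livers, against 28546, 41008.5 and 46226 in control livers. The 4 krill livers below the control range were replicates 2, 4, 5 and 7. The change was -0.70 (SE 0.27, limma adjusted p = 0.0438), and it was -0.05 without those 4 arrays (limma adjusted p = 0.82). The call also ended when any 1 of krill replicates 2, 4, 5 and 7 or control replicates 2 to 7 was left out, with changes from -0.73 to -0.48. On 1448771_a_at Fth1 gave 23853 to 53166 in krill livers and 42962 to 62296 in control livers, a change of -0.36 that did not pass (SE 0.18, limma adjusted p = 0.11). It was called lower under 3 other scalings, at -0.89 with quantile normalization, -0.77 with median centring and -1.15 with spike-in scaling (limma adjusted p = 0.000718, 0.0365 and 0.0056). Median centring and spike-in scaling move the median of all probe sets to -0.45 and -0.80.

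Slc40a1, the gene of ferroportin, differed between its 2 probe sets. On 1448566_at the lowest, median and highest signals were 384, 629.5 and 3366 in krill livers, against 3023, 3568 and 4248 in control livers. Of the 7 krill livers 6 lay below every control liver, and krill replicate 1 lay within their range. The change was -2.01 (SE 0.36, limma adjusted p = 0.000311), 4.02-fold lower. It was -0.93 without krill replicates 2, 4, 5 and 7 and still called (limma adjusted p = 0.00862). On 1417061_at the signals were 3588, 8538 and 15235 in krill livers, against 6048, 7521 and 8312 in control livers. These overlapped, and the change of 0.19 did not pass (SE 0.23, limma adjusted p = 0.517).

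The log2 ratio of 1417061_at over 1448566_at within each array averaged 3.25 ± 1.47 (SD, n = 7) in krill arrays and 1.03 ± 0.23 (SD, n = 7) in control arrays. The difference was 2.22, and 0.79 without krill replicates 2, 4, 5 and 7. It is a description only, since the ratio was formed after the 2 probe sets were seen to differ. No single direction is given for Slc40a1. Kupffer cells, the liver macrophages, also express ferroportin. The summed signal of 10 tested Kupffer markers was 10787 to 21024 in krill livers and 9895 to 13314 in control livers. Of the 10, 2 were called higher and 3 lower, against 23.4% and 24.9% of all genes read from their brightest probe set. The part of these cells in the Slc40a1 values was not tested.

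**Figure D3:**
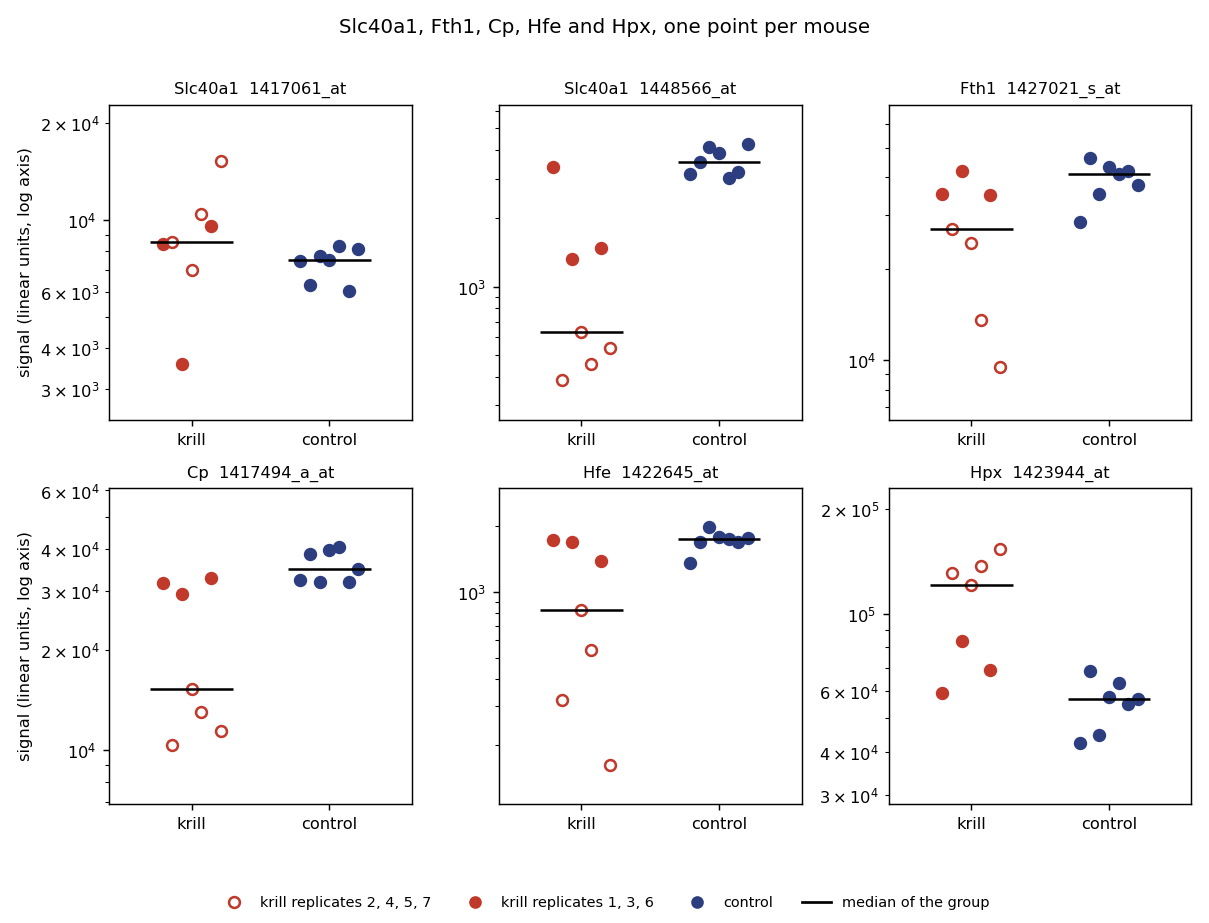
Signal in each liver on a log axis, krill left and control right, for both Slc40a1 probe sets and 1 each of Fth1, Cp, Hfe and Hpx. Open circles are krill replicates 2, 4, 5 and 7 and bars are medians. Open circles lie below the control range for Fth1 1427021_s_at, Cp 1417494_a_at, Hfe 1422645_at and Slc40a1 1448566_at and above it for Hpx.

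Cp, the plasma copper oxidase that loads iron onto transferrin, was called lower on 6 of its 7 tested probe sets, with changes from -1.41 to -0.80. On 1448734_at the lowest, median and highest signals were 3961, 6899 and 14127 in krill livers, against 16387, 19515 and 23781.5 in control livers. The groups did not overlap, and the change was -1.41 (SE 0.26, limma adjusted p = 0.000377), 2.66-fold lower. The groups were also apart on 1455393_at, with 5776 to 17559 in krill livers and 19489.8 to 25417 in control livers, and on 1417495_x_at, with 5199 to 19451 in krill livers and 21387 to 26642 in control livers. Their changes were -1.20 and -1.13. On 1417494_a_at the signals were 10332 to 32818 in krill livers and 31835 to 40599 in control livers, a change of -0.95. Signals of 1417496_at were 2417 to 10377 in krill livers and 8492 to 14341 in control livers, a change of -1.20.

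Size depended on the arrays used. Without krill replicates 2, 4, 5 and 7 the 3 Cp probe sets with separate groups changed by -0.66, -0.46 and -0.42 and were called, while 1417494_a_at and 1417496_at stood at -0.19 and -0.22 and were not (limma adjusted p = 0.292 and 0.314). Probe set 1441326_at changed by -0.80 (limma adjusted p = 0.034), with 353 to 841 in krill livers and 480 to 1804 in control livers. Its call ended when any 1 of krill replicates 4, 5 and 7 or control replicates 1, 2, 3 and 5 was left out, with changes from -0.80 to -0.67. It also ended with quantile normalization, with array weights and without krill replicates 2, 4, 5 and 7, at -0.64, -0.76 and -0.43 (limma adjusted p = 0.109, 0.0905 and 0.382). Probe set 1448735_at, with 116 to 312 in krill livers and 124 to 239.9 in control livers, changed by 0.21 and did not pass (limma adjusted p = 0.494). With spike-in scaling it was called in the opposite direction, at -0.52 (limma adjusted p = 0.0489). The eighth set, 1417497_at, was below the filter, with 18.9 to 191 in krill livers and 84.6 to 181 in control livers.

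Hpx, which carries free haem to the liver, was the 1 member called higher. Signals of 1423944_at were 59080.1, 121184 and 153255 as lowest, median and highest in krill livers, against 42479.7, 56979.5 and 68241 in control livers. The change was 0.90 (SE 0.21, limma adjusted p = 0.00271), 1.86-fold higher, and 6 of 7 krill livers lay above every control liver. Krill replicates 2, 4, 5 and 7 stood at 121184 to 153255 and krill replicates 1, 3 and 6 at 59080.1 to 83758. Without the first 4 the change was 0.35 and did not pass (limma adjusted p = 0.123). Quantile normalization gave 0.16 and scaling on the spike-ins gave 0.11, and neither passed (limma adjusted p = 0.109 and 0.513).

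The other genes of iron and haem handling were taken from 6 lists of 83 genes, each gene read from its brightest probe set. Of 72 tested genes 17 were higher and 23 lower in krill livers, and 32 did not pass. The share called was 55.6%, against 48.3% of all 11344 genes tested in this way, 24.9% lower and 23.4% higher. Without krill replicates 2, 4, 5 and 7 15 of the 72 were higher and 15 lower, 20.8% each, against 12.5% higher and 19.6% lower of all genes. The median change of the 72 was -0.22, against 0.05 for all genes, and -0.07 against -0.04 without those arrays.

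Among 20 tested genes of hepcidin regulation 3 were higher, 9 lower and 8 not called, with a median change of -0.36. The shares over all genes read from their brightest probe set were 23.4% higher and 24.9% lower. With krill replicates 2, 4, 5 and 7 left out, the list had 2 higher and 6 lower, against 12.5% and 19.6% of all genes. Bmp2, a BMP ligand that sinusoidal endothelial cells make, averaged 4902 ± 2640.4 (SD, n = 7) in krill livers and 1223 ± 226 (SD, n = 7) in control livers, a change of 1.80 (SE 0.30, limma adjusted p = 0.000162) that was 0.95 without krill replicates 2, 4, 5 and 7. No krill liver, at 1658 or above, overlapped the control livers, at 1507 or below. Of 8 tested endothelial markers Lyve1 and Gpr182 were called higher, at 1.06 and 0.86, and Stab2 lower, at -0.90. Of all genes 23.4% were called higher and 24.9% lower. Without krill replicates 2, 4, 5 and 7 Lyve1 and Gpr182 were not called, at 0.48 and 0.45 (limma adjusted p = 0.162 and 0.106). In that fit Stab2 was called lower, at -0.78, and Clec4g higher, at 0.59 (limma adjusted p = 0.0135 and 0.0153). The summed signal of the 8 markers was 10120 to 23646 in krill livers and 11220 to 14453 in control livers, and the part of these cells in the Bmp2 values was not tested. Bmp6, the other main BMP ligand of iron sensing, was not called, at -0.31 (limma adjusted p = 0.323). Of the SMAD targets, Smad6 changed by -0.68 and the feedback inhibitor Smad7 by -0.87 (limma adjusted p = 0.014 and 0.0191), while Id1 changed by 0.46 and did not pass (limma adjusted p = 0.14). Without krill replicates 2, 4, 5 and 7 Smad6 stood at -0.45 and was not called, and Smad7 stood at -1.19 (limma adjusted p = 0.109 and 0.00163). A second Smad7 probe set stood at 0.06.

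Hjv, the BMP co-receptor hemojuvelin, fell by 0.60 on the log2 scale (limma adjusted p = 0.0344) and stood at -0.06 without krill replicates 2, 4, 5 and 7. Tmprss6, the protease that cleaves hemojuvelin, changed by -0.95 (limma adjusted p = 0.0121). Those arrays left out, it stood at -0.24 and was not called (limma adjusted p = 0.193). Furin, a protease that processes prohepcidin and hemojuvelin, changed by -1.61 (SE 0.26, limma adjusted p = 0.000117), and stood at -2.00 on the remaining 10 arrays. Stat3, through which interleukin 6 raises hepcidin, changed by -2.76 on its brightest probe set, but 3 of its probe sets were called lower and 1 higher, with changes from -2.76 to 1.43. No direction is given for Stat3.

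**Figure D4:**
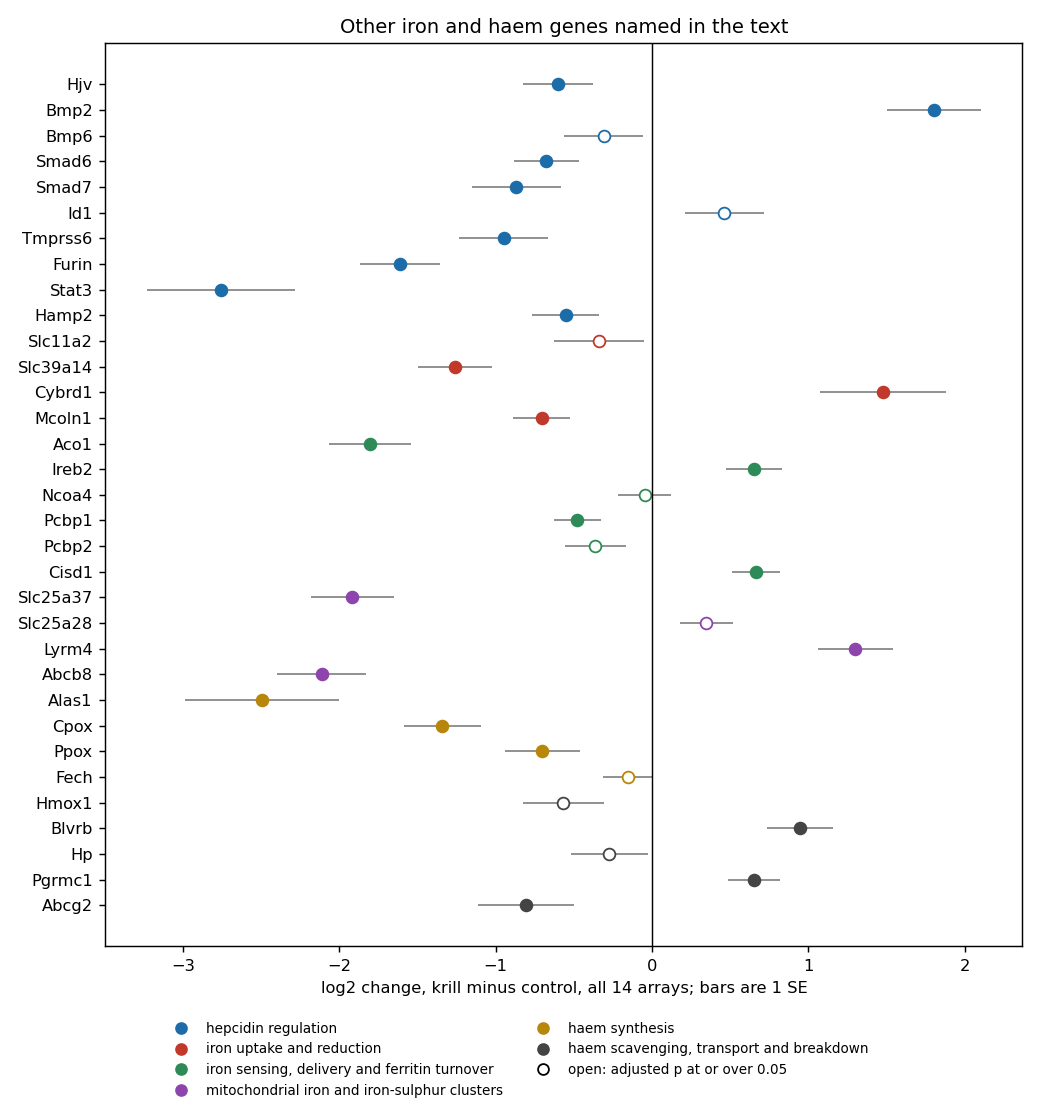
Log2 change of the named iron and haem genes outside the 10, krill minus control over all 14 arrays, with bars of 1 standard error and colours for the 6 lists. Filled circles passed the threshold. The haem synthesis genes Alas1, Cpox and Ppox lie left of 0, and Bmp2, Cybrd1 and Lyrm4 lie more than 1 to its right. Cybrd1 averaged below the signal filter cut in control livers.

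In iron uptake and reduction 2 of 8 tested genes were higher and 3 lower, against 23.4% and 24.9% of all genes. With krill replicates 2, 4, 5 and 7 left out, the list had 0 higher and 1 lower, against 12.5% and 19.6%. Slc39a14, the transporter by which hepatocytes take up iron not bound to transferrin, changed by -1.26 (SE 0.24, limma adjusted p = 0.000444), with 593 to 1898 in krill livers and 1869 to 3389.6 in control livers, and its 3 probe sets were all called lower. It stood at -0.75 without krill replicates 2, 4, 5 and 7. The ferric reductase Cybrd1 changed by 1.48 (SE 0.41, limma adjusted p = 0.00681), with 103 to 466 in krill livers and 23.4 to 169 in control livers. Its control mean of 84.8 was under the signal filter cut of 123.5. It entered the test only through its krill signal, so its call is a description only. With krill replicates 2, 4, 5 and 7 left out Cybrd1 stood at 0.82 and was not called (limma adjusted p = 0.183). Mcoln1, a lysosomal channel that can release iron, changed by -0.71 and stood at -0.40, not called, on the remaining arrays (limma adjusted p = 0.0958). Slc11a2, the divalent metal transporter, changed by -0.34 and did not pass on its brightest probe set, while another was called lower at -1.39.

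In iron sensing, delivery and ferritin turnover 4 of 9 tested genes were higher and 2 lower, against 23.4% and 24.9% of all genes. With krill replicates 2, 4, 5 and 7 left out, the list had 2 higher and 1 lower, against 12.5% and 19.6%. The iron regulatory proteins bind the transcripts of ferritin, ferroportin and Tfrc when iron is scarce. Aco1, which encodes iron regulatory protein 1, averaged 4046 ± 2138 (SD, n = 7) in krill livers and 12730.4 ± 1914 (SD, n = 7) in control livers, a change of -1.80 (SE 0.26, limma adjusted p = 6.07e-05), and both its probe sets were called lower. Ireb2, which encodes iron regulatory protein 2, changed by 0.65 (limma adjusted p = 0.00736), although with spike-in scaling it stood at -0.13 and with median centring at 0.25, not called (limma adjusted p = 0.449). The iron chaperone Pcbp1 changed by -0.48 (limma adjusted p = 0.0151). With krill replicates 2, 4, 5 and 7 left out it stood at -0.36 and was not called (limma adjusted p = 0.11). Cisd1, the mitochondrial iron-sulphur protein mitoNEET, changed by 0.66, and by -0.13 with spike-in scaling. With quantile normalization and median centring it stood at 0.20 and 0.26 and was not called (limma adjusted p = 0.0968 and 0.218). Pcbp2 and the ferritin receptor of autophagy, Ncoa4, were not called, at -0.36 and -0.05 (limma adjusted p = 0.131 and 0.836), while a second Ncoa4 probe set was called lower at -1.27.

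Of 16 tested genes of mitochondrial iron and iron-sulphur clusters 6 were higher and 5 lower, against 23.4% and 24.9% of all genes. With krill replicates 2, 4, 5 and 7 left out, the list had 8 higher and 4 lower, against 12.5% and 19.6%. Slc25a37, mitoferrin 1, changed by -1.92 (SE 0.27, limma adjusted p = 4.65e-05), with 155 to 658.5 in krill livers and 651 to 1610.2 in control livers, and by -1.53 without krill replicates 2, 4, 5 and 7. Slc25a28, mitoferrin 2, changed by 0.35 and did not pass (limma adjusted p = 0.099). Abcb8, a transporter of the inner mitochondrial membrane, changed by -2.11 (SE 0.28, limma adjusted p = 3.7e-05), and Lyrm4, a partner of the cysteine desulphurase of cluster assembly, by 1.30 (SE 0.24, limma adjusted p = 0.000367). Lyrm4 stood at 0.80 without those arrays.

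In haem synthesis 3 of 7 tested genes were called lower, against 24.9% of all genes, and the other 4 were not called on their brightest probe set. Among those 4, Alad had another probe set called lower, at -2.20, and Uros had another called higher, at 1.39. With krill replicates 2, 4, 5 and 7 left out, the brightest Alad probe set was called higher, at 0.35 (limma adjusted p = 0.0444). In that fit the list had 1 higher and 3 lower, against 12.5% and 19.6% of all genes. The median change of the 7 genes was -0.49 over all arrays and 0.10 in that fit. Alas1, the rate-limiting enzyme of the pathway in liver, averaged 3472 ± 2676 (SD, n = 7) in krill livers and 15725 ± 7174 (SD, n = 7) in control livers. Its change of -2.49 (SE 0.49, limma adjusted p = 0.000633) was -1.20 without krill replicates 2, 4, 5 and 7 (limma adjusted p = 0.0238). Cpox and Ppox, late enzymes of the pathway, changed by -1.34 and -0.70 (limma adjusted p = 0.000355 and 0.0236), and by -0.86 and -0.87 without those arrays. The Ppox call ended when any 1 of krill replicate 5 or control replicates 1, 4 and 7 was left out, with changes from -0.65 to -0.60. Fech, which inserts the iron, changed by -0.15 and did not pass on its brightest probe set (limma adjusted p = 0.445), while another was called lower at -0.59.

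In haem scavenging, transport and breakdown 2 of 12 tested genes were higher and 1 lower, against 23.4% and 24.9% of all genes. With krill replicates 2, 4, 5 and 7 left out, the list had 2 higher and 0 lower, against 12.5% and 19.6%. Blvrb, the biliverdin reductase B, averaged 8713 ± 3799.6 (SD, n = 7) in krill livers and 4251 ± 568 (SD, n = 7) in control livers, a change of 0.95 (SE 0.21, limma adjusted p = 0.00166) that was 0.88 without krill replicates 2, 4, 5 and 7. With median centring and spike-in scaling Blvrb stood at 0.54 and 0.16 and was not called (limma adjusted p = 0.11 and 0.69). Hmox1, the inducible haem oxygenase, and Hp, haptoglobin, which binds free haemoglobin, were not called, at -0.57 and -0.27 (limma adjusted p = 0.0782 and 0.366). Pgrmc1, a haem-binding membrane protein, changed by 0.65, but stood at -0.04 after quantile normalization and at -0.14 after scaling on the spike-ins. Abcg2, a transporter that exports porphyrins, changed by -0.81 (limma adjusted p = 0.0382) but stood at 0.09 with krill replicates 2, 4, 5 and 7 left out.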

How the data were processed

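Total RNA from the livers of 14 mice (7 krill, 7 control) was labelled as biotinylated cRNA and hybridised to Affymetrix mouse arrays, per the labels' protocols. The deposited values are linear signal intensities, 1 per probe set and array, made by the authors with MAS5 per the submitters' processing notes (version not given in the sources used here). Each array of the deposited intensity table had the same mean after the lowest and highest 2% of probe sets were set aside, so an array with dim RNA has its other signals raised. Detection calls are not used here.

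Sample titles gave the diet and the replicate number. Of 45101 probe sets 34958 had 1 listed gene symbol, 932 had several and 9211 were not listed. Names came from the platform annotation. The 50% with the higher mean signal over all arrays was kept, which left 19226 probe sets of 11344 genes.

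Diet was tested on log2(signal + 16) with limma 3.58.1 in R 4.3.3 (lmFit, eBayes with a trend), without covariates, with Benjamini-Hochberg adjustment over all 19226 and 0.05 as the threshold. The pseudocount of 16 understates folds of dim probe sets. Per-array ratios and levels were tested by two-sided exact permutation in Python 3.11.15. The number of arrays limits the precision. The procedure was tested on simulated data.

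The members, gene lists, tests and alternatives were chosen with earlier results of these data known. Named outside the members are a panel of 21 genes, of which 20 were tested, and up to 3 genes per list with the smallest p; Hamp2 and the Slc40a1 ratio were added after the values were seen. The replicate numbers were checked for pairing of arrays across the diets, with correlations of same-numbered arrays from -0.024 to 0.092, and do not pair them. No 2 arrays were identical, and the highest correlation between 2 arrays was 0.969. Alternatives were other pseudocounts, normalizations, signal filters, probe set summaries, weights, covariates, a replicate block and left-out arrays.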

Additional observations from a re-analysis of the deposited data

Results flagged for a closer look

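In 1 of 50 groups of 7 arrays examined, a member's extreme value stood far from the others: Hfe on probe set 1422645_at was at 1349.95 in control replicate 1, and the next lowest control liver was at 1691. Such a gap is flagged by chance in about 1 of 20 groups.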

How the results depend on the processing

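Of the 20 probe sets 14 were called, and 12 to 14 when 1 array was left out. The count was 13 to 15 with other pseudocounts, quantile normalization, median centring, spike-in scaling, other signal filters, no trend, array weights or the replicate block, 3 with the spike-in level as a covariate (both Tfr2 probe sets and Slc40a1 1448566_at), 0 with the 3'/5' index as a covariate and 8 without krill replicates 2, 4, 5 and 7 together. Over the whole array 8958 probe sets were called, 3817 higher and 5141 lower, and 7786 to 10212 with 1 array left out. The count was 5567 with the brightest probe set of each gene and 5575 with their mean, where fewer features were tested, 3092 with the spike-in level as a covariate and 0 with the 3'/5' index, where 2902 had an unadjusted p under 0.05 in limma. Median centring gave 1527 higher and 6852 lower and moved the median of all probe sets to -0.45, and spike-in scaling gave 558 and 9852 and moved it to -0.80. The cause of these differences was not tested. The replicate block gave 8677 calls and 14 of the 20.

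Signs turned as follows. With quantile normalization Tfrc 1452661_at stood at 0.073 and Pgrmc1 at -0.040. With median centring Tfrc 1422966_a_at stood at -0.057, Slc40a1 1417061_at at -0.22, Cp 1448735_at at -0.19 and Slc25a28 at -0.056. With spike-in scaling these stood at -0.37, -0.60, -0.52 and -0.43, the Tfrc 3' control set at -0.20, Id1 at -0.28, Ireb2 at -0.13, Cisd1 at -0.13 and Pgrmc1 at -0.14. For probe sets averaged per gene Tfrc stood at 0.24 and Slc40a1 at -0.91. With the spike-in level as a covariate Tfrc 1452661_at stood at 0.28, Slc40a1 1417061_at at -0.13, Cp 1448735_at at -0.34, Hfe at 0.053, Hjv at 0.025, Fech at 0.19, Hp at 0.32 and Abcg2 at 0.13. With the 3'/5' index as a covariate they stood at 0.30, -0.93, -0.27, 0.65, 0.20, 0.041, 0.73 and 0.40, and Fth1 1448771_a_at and 1427021_s_at at 0.31 and 0.51. Without krill replicates 2, 4, 5 and 7 Tfrc 1452661_at stood at 0.31, Slc40a1 1417061_at at -0.14, Cp 1448735_at at -0.24, Fech at 0.14, Hp at 0.33 and Abcg2 at 0.093. With 1 array left out Tfrc 1452661_at ran from -0.28 to 0.0079, Ncoa4 from -0.15 to 0.036 and the difference in the Tfrc 3'/5' ratio from -0.47 to 0.011, above 0 without krill replicate 3 and without control replicate 1.

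With 1 array left out Hamp2 lost its call for krill replicates 1 to 4 and control replicates 2, 4, 5, 6 and 7 (-0.56 to -0.44), Hjv for krill replicates 2, 4, 5 and 7 and control replicates 1 to 3 (-0.59 to -0.49) and Abcg2 for krill replicates 2, 4, 5 and 7 and control replicates 1, 2, 3, 5 and 6 (-0.83 to -0.63). Pcbp2 gained one without krill replicate 7 (-0.52) and Hmox1 without krill replicate 2 (-0.71). Other genes not called became called under other settings: Slc11a2, Pcbp2 and Hmox1 with median centring (-0.74, -0.77 and -0.97), Slc25a28 and Hp with quantile normalization (0.57 and -0.69), and Pcbp2 and Hmox1 with array weights (-0.50 and -0.59). With spike-in scaling Bmp6 stood at -1.01, Slc11a2 at -1.07, Ncoa4 at -0.83, Pcbp2 at -1.15, Fech at -0.94, Hmox1 at -1.28 and Hp at -1.06, all called lower. For probe sets averaged per gene Slc11a2, Ncoa4, Fech and Slc40a1 were called lower (-0.64, -0.66, -0.38 and -0.91), and Hjv and Smad7 lost their calls (-0.63 and -0.40). With the spike-in level as a covariate calls were lost for Smad6, Tmprss6, Hamp2, Slc39a14, Cybrd1, Mcoln1, Ireb2, Pcbp1, Cisd1, Lyrm4, Alas1, Ppox and Pgrmc1. Fth1 1427021_s_at and Hamp2 lost theirs without the signal filter and without the trend, Abcg2 without the trend, Hjv and Hamp2 with array weights, Cybrd1 with spike-in scaling (0.79) and Pgrmc1 with median centring (0.25).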
